A study of Bos taurus with 8 samples.

Results

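Of the genes on the array, 9 markers of lymphocytes were examined in lactating bovine mammary gland: the T cell markers CD3E, CD2, CD5, CD4, CD8A and ZAP70 and the B cell markers MS4A1, CD79A and POU2AF1. They were chosen by name, and all 9 were found through probe sets (groups of short probes for 1 transcript) annotated with a single gene symbol. Together they had 13 probe sets of 24016, and 9 of the 9155 genes named on the array. RNA came from 8 biopsies of 4 lactating Holstein cows (Bos taurus). Each cow gave 1 biopsy of a full gland, 12 h after milk removal, and 1 of an empty gland at 0 h, and the study asked how accumulated milk affects gene expression. The labels name no other treatment. They do not say in which order the biopsies were taken or from which gland of the udder, so the state cannot be told apart from such differences.

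Lymphocytes recognise antigen through receptors that cannot signal by themselves. In T cells the receptor is joined to the CD3 chains, and CD4 or CD8 beside it binds the MHC molecule that presents the antigen. Phosphorylated CD3 chains then recruit the kinase ZAP70. In B cells the antibody on the surface signals through CD79A and CD79B. In the lactating mammary gland, T cells lie in and under the epithelium, many of them carrying CD8. Plasma cells of the B lineage make part of the antibody that enters milk.

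Levels are log2 values as the authors normalized them (RMA), so a difference of 1 is 2-fold, and differences are full minus empty within a cow. Standard errors (SE), intervals and p-values come from limma with state and cow in the model, and p-values were adjusted by Benjamini-Hochberg over all 24016 probe sets. A gene with more than 1 probe set is given by the brighter one first. Signal strength also depends on the probes, so levels were compared between libraries and not between genes. The precision is limited by the number of cows, 4, each with a full and an empty library. In a biopsy, fewer cells of a type and less RNA per cell cannot be told apart.

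Cows 2 and 4 had full libraries unlike the remaining 6 over the array as a whole. The median correlations of these libraries with the other 7 arrays were 0.9690 and 0.9753, against 0.9856 to 0.9868 for the rest, and the SD of all full minus empty differences was 0.38 in cow 2 and 0.30 in cow 4, against 0.19 and 0.17 in cows 1 and 3. In the full library of cow 4 the 5' minus 3' difference of the platform's actin control was -1.36, against -0.07 to 0.07 in the other 7. The differences below are therefore also given over cows 1 and 3 alone. Markers of the labelled tissue were present. The milk protein gene LALBA was between 14.16 and 14.26. Of 11 genes of the secretory epithelium all 11 lay above the median level of the arrays (7.16), as did 6200 of all 9155 genes.

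No lymphocyte marker passed the test of full against empty gland. In limma 0 of the 13 probe sets had an adjusted p below 0.05, against 0 of 24016 on the whole array (0%), and at an unadjusted p under 0.05 there were 0 of 13, against 600 of 24016 (2.5%). All 13 had the same adjusted p of 0.993. Of the 9 genes, 7 had a higher and 2 a lower mean in full gland, with a median difference of 0.17 log2, beside a median of 0.00 over all 9155 genes, 4448 of them higher and 4707 lower. The full and empty groups overlapped for each of the 9 genes, and over all genes the groups were separate for 0.71%.

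The cows did not move together. In cows 1 to 4 the median difference over the 9 genes was -0.16, 0.22, -0.04 and 0.29, while the median over all genes stayed between -0.05 and 0.03. In cow 1 none of the 9 was higher in full gland. In cow 3 there were 3 higher, and in cows 2 and 4 there were 7 each. Of all 9155 genes, 3375, 4958, 4060 and 4869 were higher in cows 1 to 4. A single gene, CD4, with a difference that rounds to 0.00 in cow 4, had the same direction in all 4 cows (lower), beside 7.11% of all genes that were lower and 3.59% that were higher in 4 of 4. The pattern of higher in cows 2 and 4 and lower in cows 1 and 3 was shown by 5 of the 9 (CD3E, CD2, MS4A1, CD79A and POU2AF1), against 17.3% of all genes. For POU2AF1 the difference in cow 2 rounds to 0.00, so its place among these 5, and among the 7 higher in cow 2, rests on less than the last digit printed. That pattern was singled out after the values were seen. Over cows 1 and 3 alone the median of the 9 was -0.08.

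**Figure D1:**
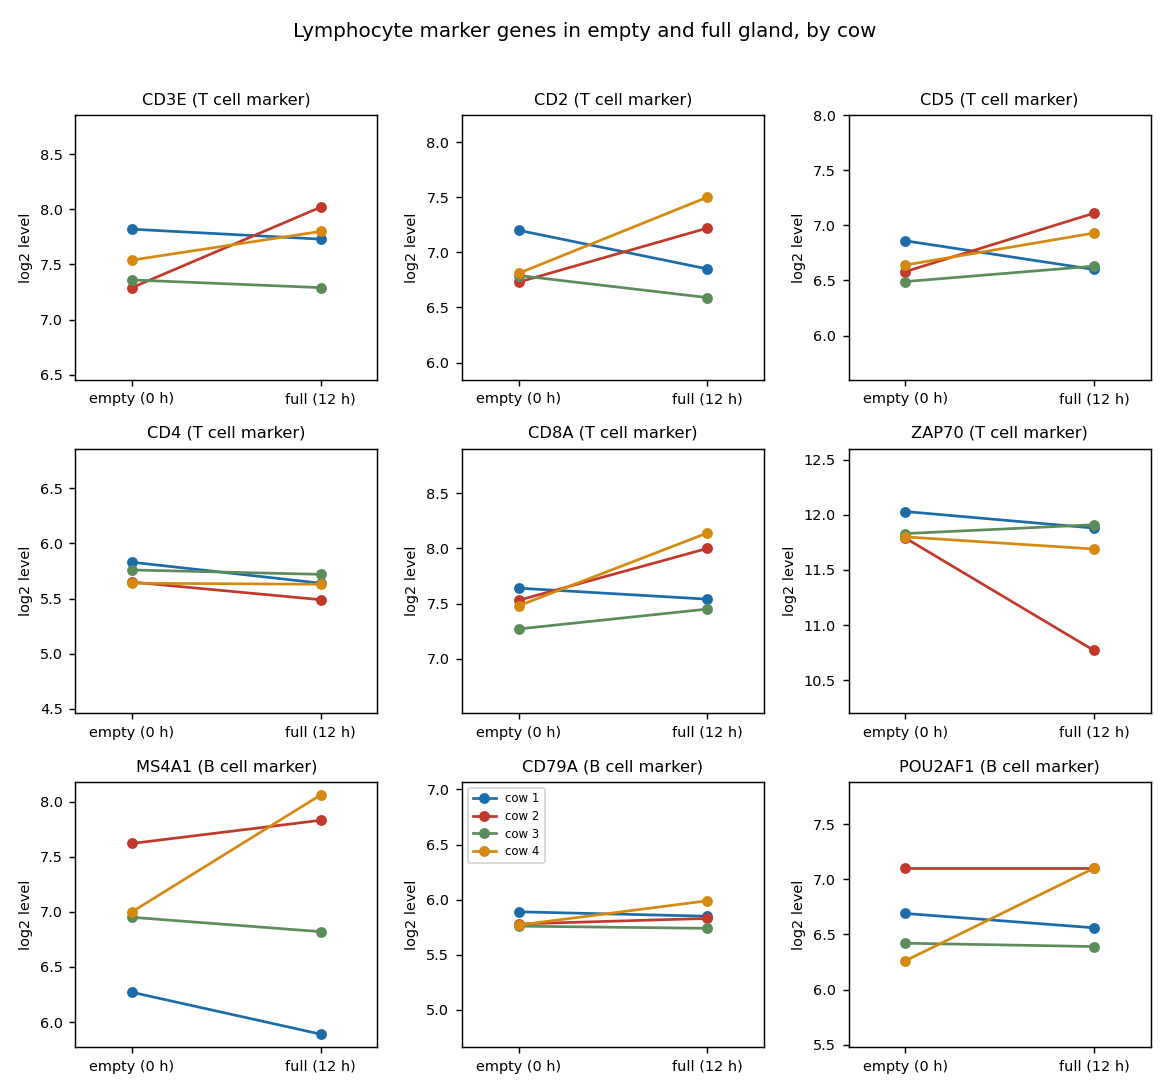
Log2 level of the 9 lymphocyte markers (1 panel each, brightest probe set, every axis 2.4 log2 units tall) in empty and full gland, with a line for each of the 4 cows. CD3E, CD2, CD5 and CD8A were higher in the full gland of cows 2 and 4, ZAP70 was lowest in the full gland of cow 2, and CD4 and CD79A stayed within narrow ranges.

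CD3E is the epsilon chain of the CD3 complex and marks all T cells that carry a receptor. Its level was 7.82 in empty and 7.73 in full gland of cow 1, 7.29 and 8.02 in cow 2, 7.36 and 7.29 in cow 3, and 7.54 and 7.80 in cow 4. The full gland of cow 2 was the highest of the 8 libraries, and the empty one of the same cow was among the lowest. The mean was 7.50 ± 0.23 in empty and 7.71 ± 0.30 in full gland (SD, n = 4), a difference of 0.21 ± 0.15 (SE, n = 4 cows) with a 95% interval of -0.17 to 0.58. Over cows 1 and 3 alone it was -0.08.

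CD2 is an adhesion receptor of T cells and natural killer cells. Its brightest probe set read 7.20 in empty and 6.85 in full gland of cow 1, 6.73 and 7.22 in cow 2, 6.79 and 6.59 in cow 3, and 6.81 and 7.50 in cow 4. Full gland was therefore above empty in cows 2 and 4 and below it in the others. The mean difference was 0.16 ± 0.19 (SE, n = 4 cows; 95% interval -0.32 to 0.63), and -0.27 over cows 1 and 3. The sign turned to -0.02 without cow 4 and to -0.03 with array weights. The other 2 probe sets differed by 0.09 and 0.13. The first of them went the other way in cows 2 (-0.15) and 3 (0.25). The last, dim at 5.39 to 5.63, was higher in all 4 cows, by 0.08 to 0.23.

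CD5, a receptor that dampens T cell receptor signals and is also found on some B cells, read 6.86 and 6.60 in empty and full gland of cow 1, 6.58 and 7.11 in cow 2, 6.49 and 6.63 in cow 3, and 6.64 and 6.93 in cow 4. It was higher in full gland of 3 cows. The mean difference was 0.17 ± 0.13 (SE, n = 4 cows; 95% interval -0.16 to 0.51), and -0.06 over cows 1 and 3, which moved in opposite directions (-0.26 and 0.15).

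The coreceptors CD8A and CD4 divide T cells into the cytotoxic and helper branches. CD8A had the largest mean difference of the 9 genes. It read 7.64 and 7.54 in empty and full gland of cow 1, 7.53 and 8.00 in cow 2, 7.27 and 7.45 in cow 3, and 7.48 and 8.14 in cow 4. It was higher in full gland of 3 cows, and the full libraries of cows 2 and 4 were the 2 highest. The mean was 7.48 ± 0.16 in empty and 7.78 ± 0.34 in full gland (SD, n = 4), and the difference did not pass the limma test (difference 0.31 ± 0.14 SE, 95% interval -0.03 to 0.64, unadjusted p = 0.066, adjusted p = 0.993). Over cows 1 and 3 alone the difference was 0.04.

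CD4 stayed near the lower end of the array's range in all libraries. Its brighter probe set lay between 5.64 and 5.83 in empty and between 5.49 and 5.72 in full gland, at the 13.4th percentile of all probe sets by mean level. The difference was -0.10 ± 0.07 (SE, n = 4 cows; 95% interval -0.27 to 0.08), and -0.11 over cows 1 and 3, with cow 4 at 0.00 and the others at -0.18, -0.16 and -0.04. The dimmer probe set differed by 0.02, with 3 cows above 0 and cow 4 below it, so the 2 probe sets did not share the direction. The lowest value of the whole array was 4.98.

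ZAP70 is the kinase that carries the T cell receptor signal onward. Its probe set ran against CD3E, CD2, CD5 and CD8A in cows 2 and 4. In cow 1 it was lower in full gland, as they were, and in cow 3 it was higher, as were CD5 and CD8A. It read 12.03 and 11.88 in empty and full gland of cow 1, 11.79 and 10.77 in cow 2, 11.83 and 11.91 in cow 3, and 11.80 and 11.69 in cow 4. The full gland of cow 2 was 1.02 lower than its empty gland, and the other 7 libraries lay within 11.69 to 12.03. The mean difference was -0.30 ± 0.19 (SE, n = 4 cows; 95% interval -0.76 to 0.16), and -0.04 over cows 1 and 3. This probe set lay at the 98.1st percentile of the array by mean level. Whether it measures ZAP70 alone was not tested here, so its values are those of the probe set annotated as ZAP70.

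Across the 8 libraries, which come in pairs from 4 cows, the levels of CD3E, CD2, CD5 and CD8A had Pearson correlations of 0.76 to 0.89 with each other, and of 0.56 to 0.85 over the 6 libraries left without the full glands of cows 2 and 4. ZAP70 had correlations of -0.38 to -0.69 with these 4 genes over all 8 libraries, but 0.54 to 0.83 over those 6. The dim CD4 probe set had correlations of -0.23 to -0.56 with the same 4 genes, and of 0.02 to 0.56 over the 6. With ZAP70 it had a correlation of 0.83 over 8 and 0.78 over 6 libraries. These correlations are descriptions of libraries that share cows and normalization.

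**Figure D2:**
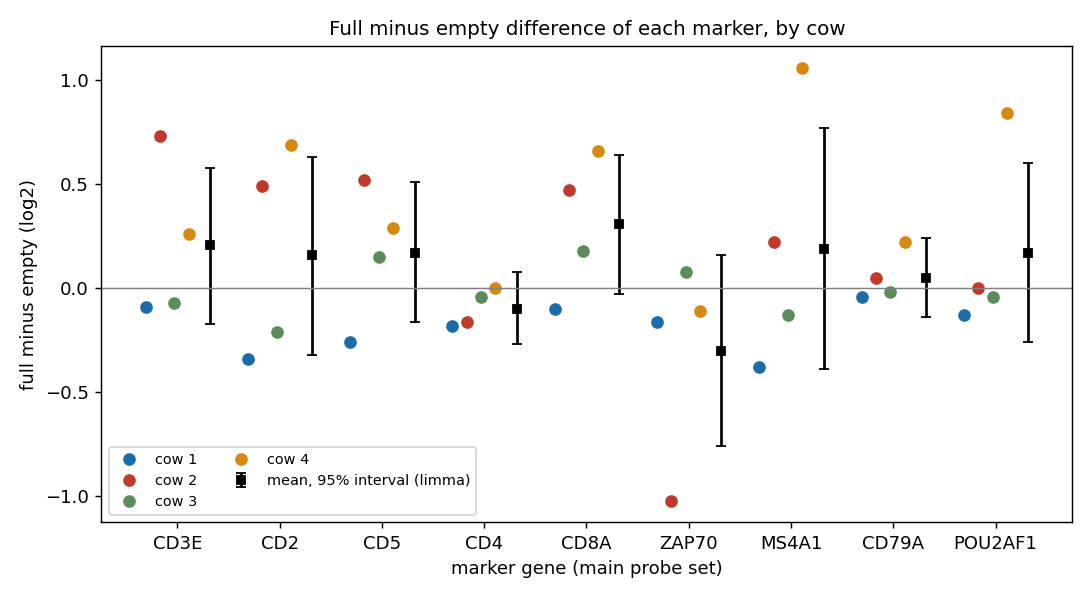
Full minus empty difference in log2 for each of the 9 markers, with a coloured point for each cow and a black square with bar for the mean and 95% interval from limma (n = 4 cows). All 9 intervals include 0, cow 4 has the highest point for CD2, CD8A, MS4A1, CD79A and POU2AF1, and cow 2 has the lowest for ZAP70, at -1.02.

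Of the B cell genes, MS4A1 encodes CD20, a surface protein of B cells that is lost in plasma cells. It had the widest spread of the 9 genes. Its brighter probe set read 6.27 in empty and 5.89 in full gland of cow 1, 7.62 and 7.83 in cow 2, 6.95 and 6.82 in cow 3, and 7.00 and 8.06 in cow 4. Both libraries of cow 1 were below all others and both of cow 2 were high, while cow 4 spanned a difference of 1.06, or 2.09-fold, between its 2 libraries. The mean difference was 0.19 ± 0.23 (SE, n = 4 cows; 95% interval -0.39 to 0.77). It was -0.10 without cow 4 and -0.25 over cows 1 and 3. The dimmer probe set repeated the order of the cows and the step in cow 4, with differences of -0.30, 0.01, -0.02 and 1.01 in cows 1 to 4.

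POU2AF1 is a coactivator that works with octamer-binding transcription factors in B cells and plasma cells. It read 6.69 and 6.56 in empty and full gland of cow 1, 7.10 and 7.10 in cow 2, 6.42 and 6.39 in cow 3, and 6.26 and 7.10 in cow 4. In cow 4 the difference was 0.84, or 1.79-fold, whereas in cows 2 and 3 the pair agreed within 0.04. The mean difference was 0.17 ± 0.17 (SE, n = 4 cows; 95% interval -0.26 to 0.60), -0.05 without cow 4 and -0.08 over cows 1 and 3.

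CD79A, the signalling partner of the B cell receptor, had a dim probe set between 5.74 and 5.99 in all 8 libraries. The highest value was the full gland of cow 4. Its differences were -0.04, 0.05, -0.02 and 0.22 in cows 1 to 4, with a mean of 0.05 ± 0.08 (SE, n = 4 cows; 95% interval -0.14 to 0.24), and it was -0.01 without cow 4 and -0.03 over cows 1 and 3. The signal was at the 18.9th percentile of the array.

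Large steps in single cows can be set against the whole array. In cow 4, 4 of the 9 genes (CD2, CD8A, MS4A1 and POU2AF1) were more than 0.5 log2 higher in full gland, against 9.12% of all genes. In cow 2, 2 of the 9 (CD3E and CD5) were higher by that much, against 10.8% of all genes, and 1 (ZAP70) was lower, against 6.78%. In cows 1 and 3 none of the 9 moved that far up (0.295% and 0.502% of all genes) or down (1.87% and 0.644%), and in cow 4 none moved that far down (2.59%). Each cow has 1 library per state, so these are descriptions with no test.

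The cows also differed in their levels. MS4A1 averaged 6.08, 7.73, 6.89 and 7.53 in cows 1 to 4, a range of 1.65 log2 or 3.13-fold, and its second probe set ranged over 1.26. The ranges of the other genes were 0.70 for POU2AF1, 0.67 for ZAP70, 0.47 for CD2, 0.44 for CD3E and CD8A, 0.28 for CD5, 0.18 for CD4 and 0.13 for CD79A. By limma's F-test for cow, which compares these 4 animals, 0 of the 13 probe sets passed, against 105 of 24016 (0.437%). MS4A1 had the smallest p of the 9 genes (unadjusted p = 0.0102, adjusted p = 0.221 in limma). With cows 2 and 4 left out, only cows 1 and 3 were compared, each with a full and an empty library. In this small fit 3 of the 13 probe sets passed, but so did 1820 of 24016 on the whole array. The brightest probe sets of CD3E (limma adjusted p = 0.0301) and MS4A1 (limma adjusted p = 0.00693) were among the 3, and the remaining 1 was a dimmer probe set. CD3E was higher in cow 1 than in cow 3 (7.77 and 7.33), while MS4A1 was lower (6.08 and 6.89).

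**Figure D3:**
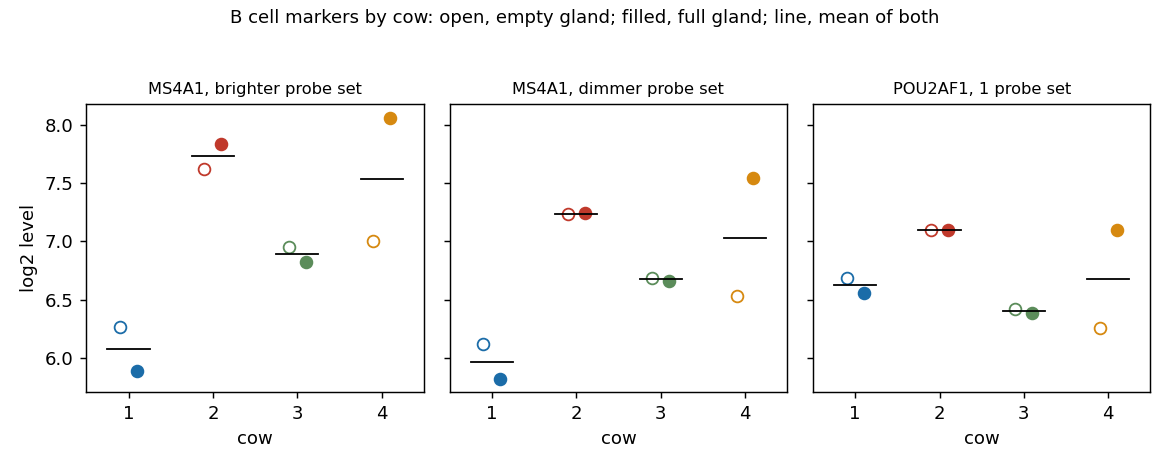
Log2 level of the 2 probe sets of MS4A1 and of POU2AF1 in each cow, with open circles for empty gland, filled circles for full gland and a line at the mean of both. Cow 1 has the lowest MS4A1 levels, cow 2 is high in both states, and the 2 libraries of cow 4 differ by 1.06 for the brighter MS4A1 probe set and 0.84 for POU2AF1.

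Further genes of the same cells were taken from lists of known function. Of the T cell receptor signalling list, which also holds other T cell genes, 16 of 25 genes were on the array. Of these 0 passed the limma test, with 14 higher and 2 lower and a median of 0.09. By cow, from 1 to 4, the median was -0.12, 0.16, 0.05 and 0.29, and it was -0.02 over cows 1 and 3. By the brightest probe set of each gene, the 2 with the smallest unadjusted p were LEF1, a transcription factor of T cell development, at 0.30 ± 0.14 (SE, n = 4 cows), and CD7, a surface protein of T and natural killer cells, at 0.19 ± 0.09. LEF1 was higher in full gland of 3 cows, by the most in cow 4 (7.25 to 7.96). CD7 was higher in all 4, with 6.44 to 6.88 in cow 2 and 7.00 to 7.03 in cow 1. Over cows 1 and 3 LEF1 differed by 0.13 and CD7 by 0.04. A dimmer probe set of CTLA4, an inhibitory receptor of T cells, had a smaller unadjusted p (0.045, limma adjusted p = 0.993) and was higher in all 4 cows, while the brighter one was higher in 2.

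Of the B cell and plasma cell list 10 of 22 genes were on the array, 7 higher and 3 lower with a median of 0.04 (-0.01 over cows 1 and 3), and 0 passed in limma. BTK, a kinase of the B cell receptor pathway that myeloid cells share, differed by 0.33 ± 0.14 (SE, n = 4 cows) and the adaptor BLNK by 0.23 ± 0.14. In cow 4 BTK went from 6.23 to 6.97 and BLNK from 7.29 to 7.93. Both were lower in full gland of cow 1 alone, and over cows 1 and 3 BTK differed by 0.07 and BLNK by -0.05. JCHAIN, which joins antibody units into polymers in plasma cells, was bright at 11.45 to 12.08 and differed by -0.01 (-0.07 over cows 1 and 3).

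Of the natural killer and cytotoxic list 15 of 24 genes were on the array, 13 higher and 2 lower with a median of 0.11 (0.00 over cows 1 and 3), and 0 passed in limma. PRF1, the pore-forming perforin, differed by 0.36 ± 0.14 (SE, n = 4 cows; unadjusted p = 0.042, adjusted p = 0.993 in limma). It read 6.72 and 7.44 in empty and full gland of cow 2 and 6.40 and 6.99 in cow 4, but 6.88 and 6.87 in cow 1. CD244, a receptor of natural killer and cytotoxic T cells, differed by 0.26 ± 0.11 and was higher in all 4 cows. Over cows 1 and 3 PRF1 differed by 0.07 and CD244 by 0.16.

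The pan-leukocyte list, whose genes lymphocytes share, and the myeloid list also had their highest medians in cow 4. Of the pan-leukocyte list, 12 of 13 genes were higher, with medians of -0.22, 0.23, -0.08 and 0.64 in cows 1 to 4, and -0.12 over cows 1 and 3. Among them CORO1A, an actin-binding protein of leukocytes, differed by 0.25 ± 0.14 (SE, n = 4 cows) and LCP1, which bundles actin, by 0.25 ± 0.17. Over cows 1 and 3 they differed by 0.00 and 0.12. The mean level of that list was 7.92 to 8.27 in empty and 7.82 to 8.58 in full libraries, highest in cow 4. Myeloid genes (12 of 13 higher) had medians of -0.35, 0.03, -0.10 and 0.82 (-0.22 over cows 1 and 3). Their mean level was 7.89 to 8.20 in empty and 7.80 to 8.68 in full libraries. ITGAM, counted among the 12, had a mean difference that rounds to 0.00. The 1 lower myeloid gene, CD14, differed by -0.35 ± 0.17 (SE, n = 4 cows), with -0.97 in cow 2 and -0.24 in cow 4.

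The same cow stood out in cells that are not leukocytes. Fibroblast and matrix genes (10 of 12 higher) had medians of -0.37, 0.18, -0.08 and 0.75 in cows 1 to 4 (-0.21 over cows 1 and 3), with mean levels of 10.18 to 10.60 in empty and 10.11 to 11.18 in full libraries. Myoepithelial genes (9 of 9 higher) had medians of -0.01, 0.18, -0.15 and 0.67 (-0.09 over cows 1 and 3), with mean levels of 9.71 to 10.14 and 9.68 to 10.77. MYH11, counted among the 9, had a mean difference that rounds to 0.00. Endothelial genes (2 of 9 higher) had medians of -0.20, -0.39, 0.03 and 0.12 (-0.05 over cows 1 and 3). Those of the secretory epithelium (5 of 11 higher) had medians between -0.01 and 0.04 in the 4 cows. Over cows 1 and 3 their median was 0.02. Many of these genes, however, had levels close to the highest value of the array (14.43), and single genes differed more. In cow 4 KRT18 differed by 1.36, KRT8 by 1.21 and CDH1 by 0.57. In cow 2 KRT18 differed by 1.19 and EPCAM by 0.81, but KRT8 by 0.11. The keratin KRT19 differed by -0.09 in cow 4 and 0.10 in cow 2. In each of cows 2 and 4, 5 of the 11 genes were higher. No gene of these lists passed the state test in limma. Their part in the lymphocyte values was not tested.

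Marker genes of adipocytes and red cells did not follow this course, but most were dim. Of them, 1 of the 4 adipocyte genes and 0 of the 5 erythrocyte genes lay above the median level of the arrays. In cow 2 the adipocyte genes ranged from -0.53 to 1.01. Adipocyte genes (1 of 4 higher) had medians of -0.13, -0.16, -0.04 and -0.10 (-0.06 over cows 1 and 3), and erythrocyte genes (3 of 5 higher) of 0.05, -0.03, 0.02 and -0.10 (0.08 over cows 1 and 3). HBA, counted as higher, and HBM, counted as lower, had mean differences that round to 0.00. The mean level of the erythrocyte list lay between 5.85 and 6.01 in all 8 libraries, near the lower end of the range of the array in both states.

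**Figure D4:**
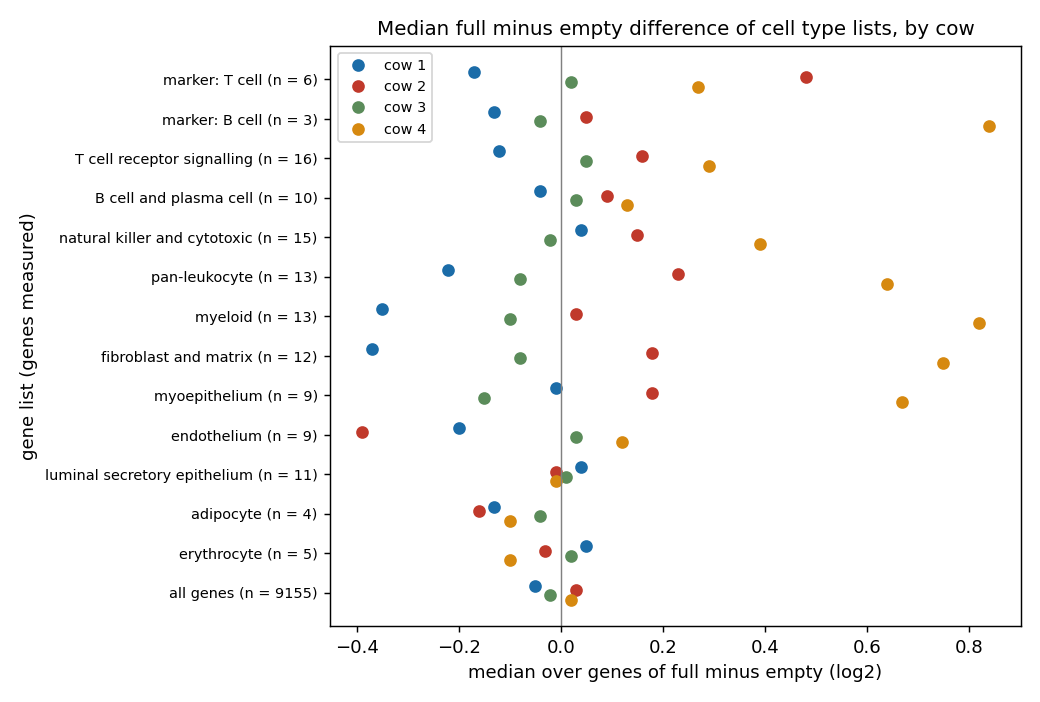
Median full minus empty difference (log2) over the genes of each list, with a point for each of the 4 cows and the number of genes measured beside the name. Cow 4 is the highest point for the B cell markers (0.84) and for the pan-leukocyte, myeloid, fibroblast and myoepithelial lists (0.64 to 0.82), cow 2 for the T cell markers (0.48), and the medians over all genes lie near 0.

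Genes with a course like that of the markers were sought among 6197 other genes with a mean level above the median of the arrays. Of the T cell markers CD3E, CD8A and ZAP70 lay above it. Over the 8 libraries ZAP70 had correlations of -0.56 with CD3E and -0.58 with CD8A, so no gene could follow all 3 closely. The highest mean correlations with these 3 genes over the 8 libraries were 0.481 for FRMD8, 0.475 for CRYAB, 0.473 for CSPP1, 0.472 for CNEP1R1 and 0.470 for MTPAP. Without the full libraries of cows 2 and 4 these correlations were 0.740 to 0.819. No B cell marker lay above the median, so none entered that search. In further searches made after the values were seen, the genes closest to CD3E, CD2, CD5 and CD8A together were TCF3 (mean r = 0.925), RAC2 (0.919), PAM (0.918), KDM1A (0.912) and PLEKHB1 (0.909), with correlations of 0.808 to 0.856 over the 6 libraries. RAC2, a GTPase of blood cells, belongs to the pan-leukocyte list. The genes closest to ZAP70 were RAB7A (0.988), PGP (0.987), PPP4C (0.987), CD81 (0.986) and PSMB7 (0.986), with correlations between 0.547 and 0.838 without the full libraries of cows 2 and 4. Those closest to the B cell marker MS4A1 were G3BP1 (0.981), CTNNB1 (0.965), TFPI2 (0.956), SEPTIN7 (0.948) and NRAS (0.948). Over the 6 libraries their correlations were 0.931 to 0.979. The genes of all these searches were picked from 6197 by their correlation over 8 paired libraries, so the values are a description.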

How the data were processed

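The values used are log2 levels that the authors computed with RMA (background correction, quantile normalization and a summary of the probes of a set), per the submitters' processing notes, which name no version. Per the labels' protocols, cRNA was primed from the poly(A) tail. Quantile normalization hides shifts shared by most genes. Of 24128 probe sets, 112 platform controls were left out and no filter on low values was applied. All 13 marker probe sets matched RefSeq genes of ARS-UCD2.0 by entrez number, and 0 symbols changed. No genome was used, so no coordinates or sequences are given.

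limma 3.58.1 in R 4.3.3 (lmFit, eBayes, two-sided) was fitted with state and cow as fixed terms, on 3 residual and 2.81 prior degrees of freedom. The descriptions pair the samples by cow. Deviations from the state means had correlations of 0.319 to 0.597 within cows and of -0.03 or below between full and empty libraries of different cows. Because deviations are taken from the mean of each state, positive values within cows pull those between cows to the negative side. The fit was tested on simulated data. Members, lists and the rule for named genes (all members, and in each lymphocyte and leukocyte list those passing a test or the 2 with the smallest unadjusted p) were chosen with earlier results of these data known. JCHAIN, KRT8, KRT18, KRT19, EPCAM, CDH1, MYH11, ITGAM, HBA and HBM were named after their values were seen. So were the second CTLA4 probe set and the genes in the further searches. Alternatives covered the block, scaling, dim probe sets, the variance model, array weights, averaging over the probe sets of a gene and cows left out.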

Additional observations from a re-analysis of the deposited data

Results flagged for a closer look

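Among 26 groups of 4 libraries (13 probe sets in 2 states), 1 held a library far from the others by Dixon's ratio, while chance flags about 1 group in 20. CD79A in the empty gland of cow 1 was at 5.89, with the nearest of the other empty libraries at 5.78 and the farthest at 5.76 (ratio 0.847, above the 95% critical value for 4 samples). The gap is small beside the spread of the other markers, and the probe set was dim in all libraries.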

How the results depend on the processing

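In every alternative run, 0 of the markers tested passed the state test, with no replicate block and with cow as a random block included. Among all probe sets 0 passed in each run that counted them. The run on probe sets above the array median covered 12008 probe sets and 3 of the markers. The run on averages over the probe sets of a gene counted the 9 markers only. The median difference over the markers, 0.17, was 0.17 without the block, 0.15 after either rescaling and 0.03 with array weights. It ranged from -0.02 to 0.31 with 1 cow left out, the lowest without cow 4, and was -0.08 without cows 2 and 4. Without cow 4 the sign turned for CD2 (-0.02), MS4A1 (-0.10), CD79A (-0.01) and POU2AF1 (-0.05), and without cows 2 and 4 for CD3E (-0.08), CD2 (-0.27), CD5 (-0.06), MS4A1 (-0.25), CD79A (-0.03) and POU2AF1 (-0.08). Without cow 2, CD3E went from 0.21 to 0.03, CD5 from 0.17 to 0.06 and ZAP70 from -0.30 to -0.06, and without cow 4 CD8A went from 0.31 to 0.19. With 1 cow left out, CD3E ranged from 0.03 to 0.31, CD5 from 0.06 to 0.32, CD8A from 0.19 to 0.44, ZAP70 from -0.43 to -0.06, CD4 from -0.13 to -0.07, CD2 ranged from -0.02 to 0.32, MS4A1 from -0.10 to 0.38, CD79A from -0.01 to 0.08 and POU2AF1 from -0.05 to 0.27. With array weights CD2 turned to -0.03. ZAP70 and CD4 kept a negative and CD8A a positive sign in all alternatives run. Of the whole array, 105 probe sets passed the cow test, 208 after median centring, 248 with an intensity trend and robust prior, 286 with array weights, 1820 without cows 2 and 4, and 13 to 131 with 1 cow left out (29 without cow 1, 27 without cow 3, 13 without cow 4). Marker probe sets passed it in 1 alternative, 3 of 13 without cows 2 and 4, against 1820 of 24016 on the whole array. The cause of these changes was not tested.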
